A study of Rattus norvegicus with 6 samples.

Results

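The genes described here are the cell cycle genes of DNA replication and of mitosis, in rat sciatic nerve collected after a defect. Their 36 symbols were matched to the symbols of the count table. Of these, 35 were found among 23091 entries, 13 of replication and 22 of mitosis, each with 1 entry. E2f1 was not analysed here. All 35 passed the filter on low counts, which kept 13999 genes. The libraries came from wild-type male Sprague-Dawley (SD) rats with a sciatic nerve defect, which both groups share. NC, with 3 libraries, had its wounds closed without an implant. The other 3 libraries, called implant 1 to implant 3, are from rats given the GDNF-Gel/HA-Mg nerve conduit, whose name holds that of a growth factor for neurons and glia, GDNF. The groups thus differ by a whole conduit, and no conduit without GDNF was analysed here. Values by library are always given in the order 1, 2 and 3 within a group. The labels give neither an age nor the time after surgery. Nor do they tie each library to its own rat. A p-value here therefore weighs the spread of these samples alone, and that spread may be technical.

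A cell that divides copies its DNA in S phase and separates the copies in mitosis. For S phase, the Mcm2 to Mcm7 ring is loaded on origins by Cdc6 and Cdt1 and becomes the replicative helicase, and transcription of this set is driven largely by E2F factors. The mitotic set is made later, in G2, when cyclin A and cyclin B with Cdk1 start chromosome condensation, spindle assembly and cytokinesis. In injured nerve, Schwann cells, macrophages, fibroblasts and endothelial cells are all known to divide. Bulk messenger RNA does not name the dividing cell, and fewer cells of a type cannot be told apart from less RNA per cell.

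Total counts ran from 15897850 to 18491379 per library. Schwann cell markers were present in all 6 libraries: all 8 of the list passed the filter and none was at 0. Their summed level ran from 1831 to 28700 CPM (counts scaled to the library's total) in NC and from 1547 to 14830 CPM with the implant. Transcripts of other tissues were also present. Haemoglobin took 1.02% to 25.2% of the counts in NC and 8.08% to 14.8% with the implant, with the highest share in NC 3. Markers of skeletal muscle fibres summed to 20.9 to 991 CPM in NC and to 61.8 to 6443 CPM with the implant, highest in implant 3.

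The sets differ in the letters of their promoters, which were not used to choose them. Promoter windows from RefSeq (build GRCr8, 250 bases before to 50 after the start the table uses) matched 10 replication and 19 mitotic genes. The start used was the gene's outermost start, as RefSeq lists it, in 11 of these 29 windows. The listed start lay inside the window for 24 of them and outside it for Mki67, Aurka, Birc5, Kif11 and Kif23, with 4 of these over 1000 bases away. An E2F site was searched as TTTCCCGC, TTTCGCGC, TTTGCCGC or TTTGGCGC. A CHR was searched as TTTGAA, and this element of many late cell cycle promoters (the cell cycle genes homology region) was also searched in its variant form TTCGAA. The box that binds NF-Y was searched by its letters CCAAT. All were searched on both strands, and a gene with overlapping matches was counted 1 time. The following stretches of 250 bases end just before the listed gene start and, except that of Ccnb1, show the contrast. Capitals mark E2F and CCAAT letters in the helicase genes Mcm5 and Mcm6, and CHR and CCAAT letters in the mitotic genes Cdc20 and Top2a. In the mitotic gene Ccnb1 they mark CCAAT letters only.
Mcm5 (chr19:13488563-13488812, plus strand): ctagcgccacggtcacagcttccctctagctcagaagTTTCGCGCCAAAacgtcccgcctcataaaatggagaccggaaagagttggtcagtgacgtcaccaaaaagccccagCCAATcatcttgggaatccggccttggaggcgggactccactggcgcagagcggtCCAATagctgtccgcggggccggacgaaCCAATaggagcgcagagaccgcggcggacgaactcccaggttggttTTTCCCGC
Mcm6 (chr13:42404353-42404602, minus strand): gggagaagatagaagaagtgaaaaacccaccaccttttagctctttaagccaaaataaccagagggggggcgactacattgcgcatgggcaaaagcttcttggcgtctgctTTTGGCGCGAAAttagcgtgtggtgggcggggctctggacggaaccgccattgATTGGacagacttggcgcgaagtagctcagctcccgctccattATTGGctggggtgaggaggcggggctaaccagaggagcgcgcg
Ccnb1 (chr2:33655226-33655475, minus strand): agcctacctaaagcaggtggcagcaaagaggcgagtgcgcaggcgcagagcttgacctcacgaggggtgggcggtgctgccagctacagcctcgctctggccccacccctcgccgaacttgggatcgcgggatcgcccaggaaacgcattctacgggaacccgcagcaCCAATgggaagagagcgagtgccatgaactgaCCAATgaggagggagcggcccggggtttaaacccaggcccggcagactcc
Cdc20 (chr5:137255800-137256049, minus strand): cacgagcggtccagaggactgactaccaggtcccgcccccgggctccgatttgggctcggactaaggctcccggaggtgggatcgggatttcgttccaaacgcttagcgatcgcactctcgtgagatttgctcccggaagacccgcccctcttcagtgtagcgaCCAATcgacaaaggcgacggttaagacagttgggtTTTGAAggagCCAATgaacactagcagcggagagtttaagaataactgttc
Top2a (chr10:84473094-84473343, minus strand): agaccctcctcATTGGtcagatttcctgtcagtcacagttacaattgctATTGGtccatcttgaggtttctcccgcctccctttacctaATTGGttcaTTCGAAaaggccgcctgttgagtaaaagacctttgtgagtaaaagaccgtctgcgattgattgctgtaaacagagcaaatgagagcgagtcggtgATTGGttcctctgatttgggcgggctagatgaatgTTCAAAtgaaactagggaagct

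E2F letters were found in 7 of 10 replication promoters (70%) and in 1 of 19 mitotic promoters (5.26%), that of Cdk1. Among 9885 tested genes with 1 promoter entry the share was 3.94%. CHR letters were found in 2 of 10 replication promoters (20%), Mcm2 and Mcm7, and in 13 of 19 mitotic promoters (68.4%), against 13.5% of the tested genes. CCAAT was more widely shared, with 60% of replication and 84.2% of mitotic promoters against 37.3%. CHR and CCAAT stood together in 12 of 19 mitotic promoters (63.2%), in 1 of 10 replication promoters and in 5.55% of the tested genes. In 8 of these 12 the last CHR followed a CCAAT box at a distance of 20 to 40 bases, as at 30 bases in Top2a and Cdc20 and 27 bases in Prc1. That spacing was held by 62 of the 549 tested promoters with both motifs, which is 0.627% of all 9885. Of the 28 other mitotic promoters with both, 9 held it. Ccnb1 had CCAAT letters but no CHR letters in its window, and the window of Bub1 held none of these motifs. Among the 14 mitotic windows that hold the listed gene start, CHR letters were in 71.4% and E2F letters in 7.14%, beside 13% and 3.89% of 6987 such windows of tested genes. All 10 replication windows hold it. The same contrast was present in the wider lists. E2F letters were in 13 of 33 other replication promoters (39.4%) and 1 of 52 other mitotic promoters (1.92%), and CHR letters were in 18.2% and 76.9%. These are matches of letters, and no binding was measured. Overlap between motifs of different kinds occurred at 2 places.

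**Figure D1:**
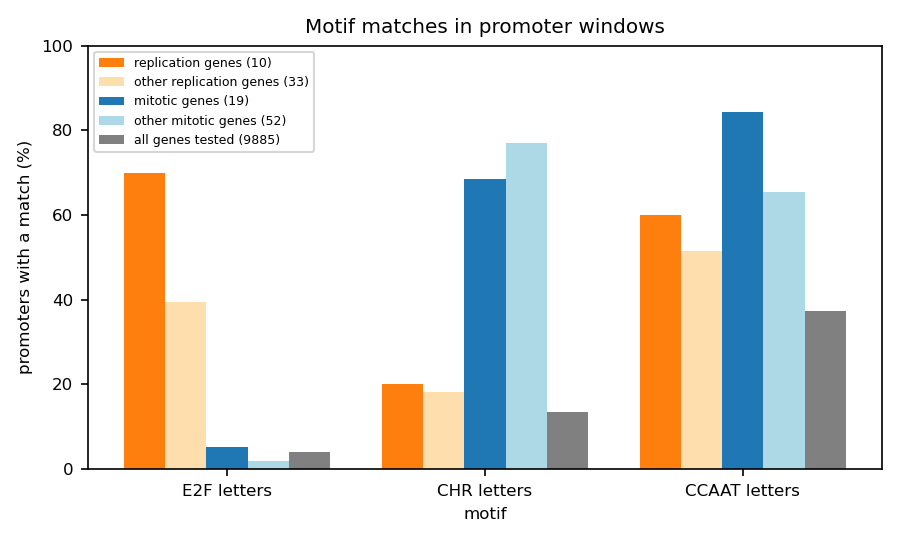
Share of promoter windows (%) that hold E2F, CHR or CCAAT letters in each gene set, with the number of promoters in brackets. E2F letters were in 70% of replication and 5.26% of mitotic promoters, and CHR letters were in 20% and 68.4%.

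The comparison of the groups asked how the conduit altered expression in the regenerating nerve. No replication or mitotic gene passed edgeR's quasi-likelihood test with Benjamini-Hochberg adjustment over all genes (0 of 35, with 0% of 13999 genes called), and the smallest adjusted p of the 35 was 1.00. DESeq2 called 0 of the 35, with 0.0786% of all genes called. At an unadjusted edgeR p under 0.05 there were also 0 of the 35, where 1.72% of all genes passed (1.03% higher and 0.693% lower with the implant). Log2 fold changes (implant against NC) were positive for 30 of the 35, where 47% of all genes were positive. The median was 0.24 for the 13 replication genes, with 10 positive, and 0.35 for the 22 mitotic genes, with 20 positive, beside -0.01 over all genes tested. With 1 library left out the positive count ran from 17 of 35 without implant 1 to 32 of 35 without implant 2. It was 22 of 35 without NC 1, where 13 of 22 mitotic genes were positive. Without implant 1 the mitotic median was -0.01, with 10 of 22 positive, and the replication median was 0.11. The mitotic median was also moved by other libraries, to 0.18 without NC 1, 0.94 without NC 2 and 0.67 without implant 2, and the replication median was 0.10 without NC 3.

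The sets differed in how precisely a change was bounded. The 95% interval of the log2 fold change lay within a 2-fold change for 9 of the 13 replication genes and for 1 of the 22 mitotic genes, beside 65.8% of all genes tested. That mitotic gene was Cdc20. For the median replication gene the standard error was 0.24 log2 units, and for the median mitotic gene 0.62. For the other 21 mitotic genes the interval reached past 2-fold.

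**Figure D2:**
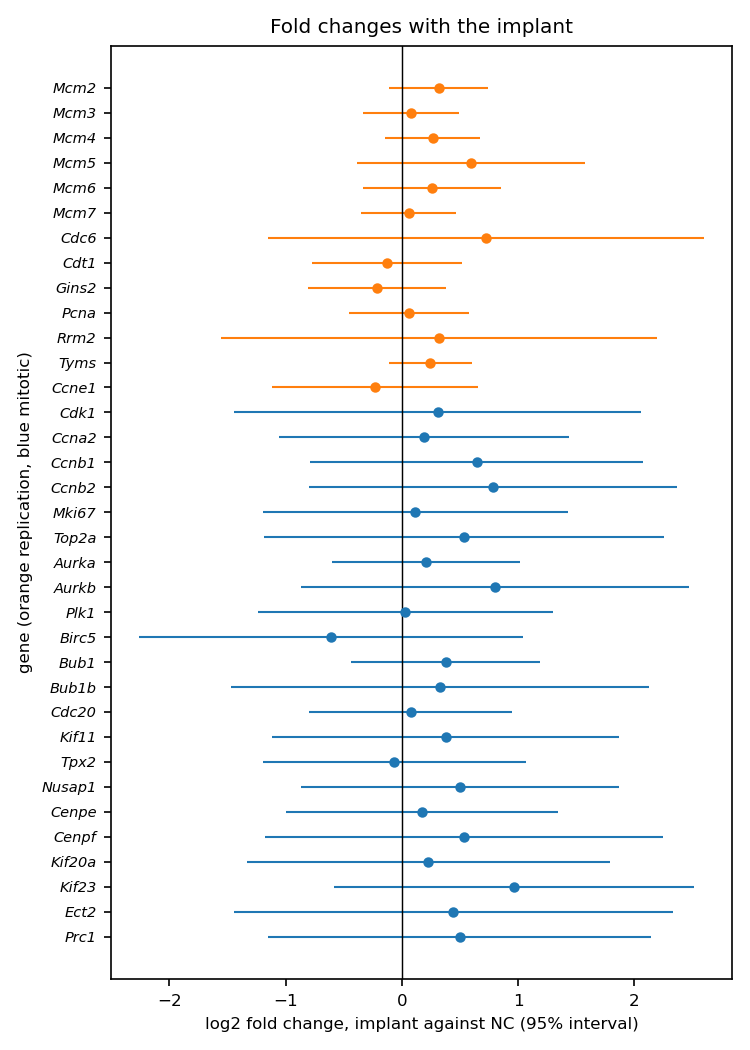
Log2 fold change of each gene, implant against NC, with its 95% interval, for 13 replication genes (orange) and 22 mitotic genes (blue). Every interval includes 0, and the mitotic intervals are mostly wider than those of the Mcm genes.

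The helicase and its loaders stayed within narrow limits over the 6 libraries, with the exceptions of Mcm5 and Cdc6. Mcm2 (ENSRNOG00000016316), a subunit of the helicase ring, measured 18.3, 18.4 and 12.9 CPM across the NC libraries, against 22.01, 19.5 and 20.3 CPM across those with the implant. It was the only one of the 35 whose groups did not overlap, where 5.69% of all genes did not overlap (2.81% higher and 2.88% lower with the implant). Its log2 fold change was 0.32 ± 0.17 (SE, n = 3 per group, edgeR unadjusted p 0.117, adjusted p 1.00). Mcm7 (ENSRNOG00000001349), another ring subunit, measured 37.2, 26.0 and 28.3 CPM across the NC libraries, against 29.2, 31.6 and 34.5 CPM across those with the implant. Its highest and lowest libraries were thus both in NC, and its log2 fold change was 0.06 ± 0.17. The other ring subunits Mcm3, Mcm4 and Mcm6 had log2 fold changes of 0.08, 0.27 and 0.26, with 1.40-fold, 1.58-fold and 1.90-fold between their highest and lowest libraries. Mcm5, whose promoter is shown above, spanned 2.80-fold, with 3.69, 7.05 and 3.61 CPM across the NC libraries, against 10.1, 4.78 and 6.84 CPM across those with the implant. Cdt1, which loads the ring, and Gins2, a part of the active helicase, spanned 1.44-fold and 1.60-fold and had log2 fold changes of -0.13 and -0.21. Cdc6 spanned 9.31-fold, but on 2 to 23 counts per library.

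Enzymes that serve the fork were split in the same way. Pcna (ENSRNOG00000021264), the sliding clamp of the polymerases, measured 53.3, 74.6 and 46.0 CPM across the NC libraries, against 67.4, 52.5 and 61.7 CPM across those with the implant. Its groups overlapped, with both extremes in NC, and its log2 fold change was 0.06 ± 0.21. Tyms (ENSRNOG00000037225), which makes thymidylate, measured 23.3, 21.5 and 28.4 CPM across the NC libraries, against 31.6, 28.5 and 26.6 CPM across those with the implant. NC 3 lay inside the range of the implant libraries, and the log2 fold change was 0.24 ± 0.15. Rrm2 (ENSRNOG00000054286), the subunit of ribonucleotide reductase that is made in S phase, moved far more than these. It measured 3.01, 15.8 and 8.24 CPM across the NC libraries, against 20.1, 3.75 and 9.91 CPM across those with the implant. Ccne1, the cyclin of S phase entry, measured 1.04, 1.04 and 1.301 CPM across the NC libraries, against 1.17, 0.761 and 0.943 CPM across those with the implant, on 14 to 20 counts. Its log2 fold change of -0.23 ± 0.36 was on the lower side.

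The mitotic genes moved together between libraries of the same group, by more than the difference between the groups. Among the cyclins and their kinase, Cdk1 (ENSRNOG00000000632) measured 1.25, 5.66 and 1.59 CPM across the NC libraries, against 5.15, 1.58 and 3.83 CPM across those with the implant. NC 2 was the highest of all 6 libraries and NC 1 the lowest, so the NC range enclosed that of the implant. Its mean was 2.83 ± 2.46 CPM (SD, n = 3) in NC and 3.52 ± 1.81 CPM (n = 3) with the implant. Ccnb1 (ENSRNOG00000058539), a cyclin of mitotic entry, measured 1.92, 4.51 and 1.301 CPM across the NC libraries, against 6.38, 2.4995 and 3.24 CPM across those with the implant. Ccnb2 (ENSRNOG00000063216), the related cyclin, measured 1.40, 3.18 and 2.02 CPM across the NC libraries, against 6.497, 1.20 and 3.71 CPM across those with the implant. For both cyclins implant 1 was highest, and implant 2 lay within the NC range of Ccnb1 and below that of Ccnb2. Ccna2, the cyclin of S phase and G2, measured 2.49, 6.24 and 3.98 CPM across the NC libraries, against 7.90, 2.88 and 3.71 CPM across those with the implant. The 4 log2 fold changes ran from 0.19 to 0.79.

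Genes that shape chromosomes and the spindle were likewise below their own means in NC 1 and implant 2, though Kif11 only slightly in NC 1. Top2a, Nusap1, Kif11, Cenpe and Cenpf were also below their means in NC 3, where Top2a and Kif11 were at their lowest. Top2a (ENSRNOG00000053047), the topoisomerase that untangles sister chromatids, measured 5.97, 19.5 and 5.57 CPM across the NC libraries, against 25.7, 5.65 and 13.7 CPM across those with the implant. Implant 2 was level with NC 1 and NC 3, and NC 2 lay above implant 3. Its log2 fold change was 0.54 ± 0.71, and without implant 1 it was -0.08. Nusap1, a spindle protein that bundles microtubules, measured 2.02, 4.74 and 2.53 CPM across the NC libraries, against 6.97, 1.90 and 4.30 CPM across those with the implant. The spindle and kinetochore genes Kif11, a spindle motor, and Cenpe and Cenpf, which act at kinetochores, spanned 5.24-fold, 2.51-fold and 4.79-fold over the libraries. Their log2 fold changes were 0.38, 0.17 and 0.54.

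In the cytokinesis group, Prc1 (ENSRNOG00000013057), which bundles microtubules of the central spindle, measured 3.58, 12.0 and 4.05 CPM across the NC libraries, against 14.8, 3.48 and 9.43 CPM across those with the implant. Kif23 (ENSRNOG00000014080), a motor of the central spindle, had the largest log2 fold change of the 35, at 0.97 ± 0.64 (edgeR unadjusted p 0.178, adjusted p 1.00). It measured 1.35, 2.83 and 1.59 CPM across the NC libraries, against 6.73, 1.36 and 3.24 CPM across those with the implant. Implant 2 again lay at the level of NC 1, so the groups overlapped, and without implant 1 the log2 fold change of Kif23 was 0.27. Kif20a, another motor of cytokinesis, and Ect2, which activates RhoA at the cleavage furrow, spanned 3.65-fold and 5.29-fold with log2 fold changes of 0.23 and 0.44.

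Among mitotic kinases, Aurkb (ENSRNOG00000005659), the kinase of the chromosomal passenger complex, measured 1.40, 2.37 and 0.361 CPM across the NC libraries, against 3.51, 1.52 and 2.24 CPM across those with the implant. NC 3 had 5 counts of Aurkb, the fewest of any library, and the log2 fold change was 0.80 ± 0.69. Aurka, the kinase of the spindle poles, varied least of the mitotic genes, with 1.92, 2.54 and 3.47 CPM across the NC libraries, against 3.75, 2.61 and 2.77 CPM across those with the implant. Plk1, a kinase that acts throughout mitosis, had a log2 fold change of 0.03 and spanned 3.03-fold. The spindle checkpoint kinase Bub1 (ENSRNOG00000032778) measured 5.19, 7.80 and 5.86 CPM across the NC libraries, against 10.8, 4.999 and 8.73 CPM across those with the implant. Its log2 fold change was 0.38 ± 0.33, and its highest and lowest libraries were both of the implant group. Bub1b, its partner in the checkpoint, spanned 6.27-fold with a log2 fold change of 0.33.

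**Figure D3:**
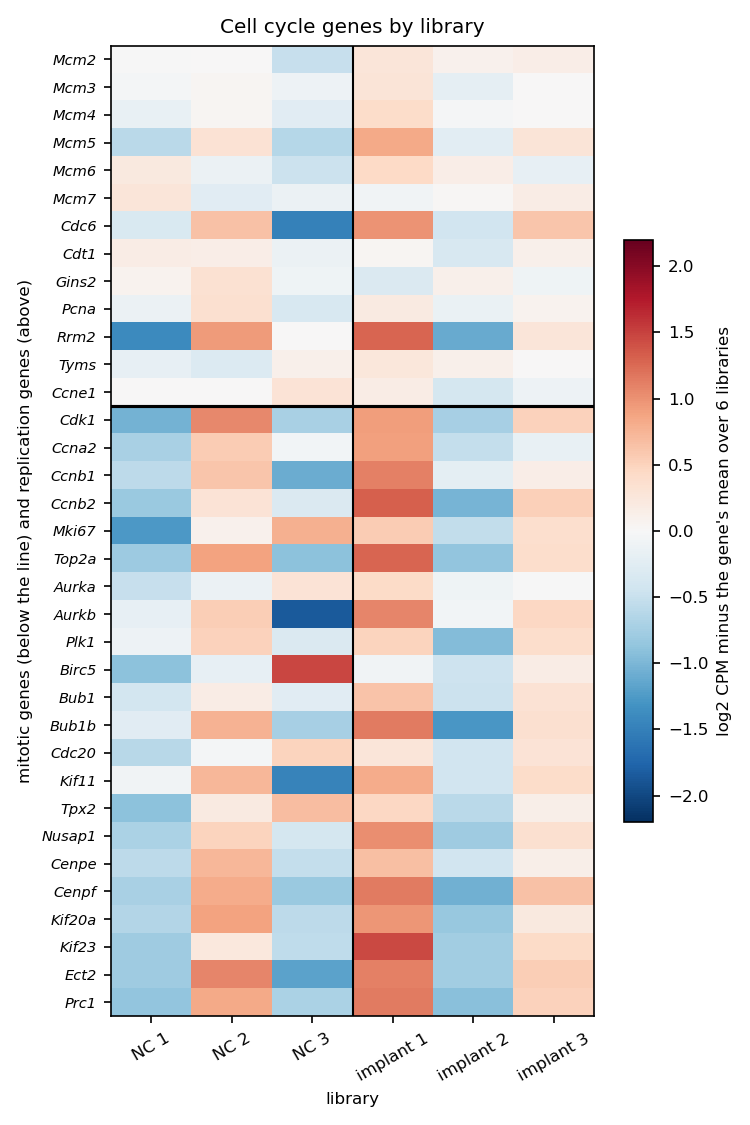
Log2 CPM of 35 genes (rows) in 6 libraries (columns), each gene relative to its mean over the libraries, with replication genes above the horizontal line and mitotic genes below it. Implant 1 was highest for 23 of the 35 genes, and most mitotic rows are low in NC 1 and implant 2.

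The contrast of the sets lay in the spread over libraries. Of the mitotic genes, 18 of 22 spanned more than 3-fold between their highest and lowest libraries, and of the replication genes 2 of 13 did, Rrm2 and Cdc6. The share was 23.0% among 6662 tested genes in the mitotic genes' range of mean log2 CPM and 21.7% among all genes tested. The median SD within groups was 0.88 log2 units for mitotic genes and 0.22 for replication genes, beside 0.32 for genes in the mitotic range and 0.29 for all genes. Counting error alone would give about 0.18 and 0.10 log2 units at the median counts of the mitotic and the replication genes. Among replication genes with lower counts the spread was uneven, with 0.92 for Cdc6 at a mean count of 12.8, 0.23 for Ccne1 at 17.7 and 0.21 for Cdt1 at 52.0.

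Each set was also summarised by its mean log2 CPM in a library, with each gene centred on its own mean over the 6 libraries. For mitotic genes the NC levels were -0.65, 0.51 and -0.39, and those of the implant libraries were 0.86, -0.64 and 0.32. The replication level followed the same signs over a smaller range: NC libraries had -0.16, 0.17 and -0.29, and implant libraries 0.37, -0.18 and 0.10. Not every replication gene followed these signs, with 5 of 13 above their own mean in NC 1 and 5 of 13 in implant 2. Rrm2 deviated most in these libraries, at -1.41 and -1.10. From lowest to highest library the mitotic level spanned 2.83-fold and the replication level 1.57-fold. The difference of the levels, mitotic minus replication, came to -0.48, 0.34 and -0.11 for NC libraries, against 0.49, -0.46 and 0.22 for implant libraries. Its group means were -0.08 ± 0.41 (SD, n = 3) and 0.08 ± 0.49 (n = 3), so the groups overlapped over nearly their whole range. No test was made of these scores, which rest on chosen genes.

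**Figure D4:**
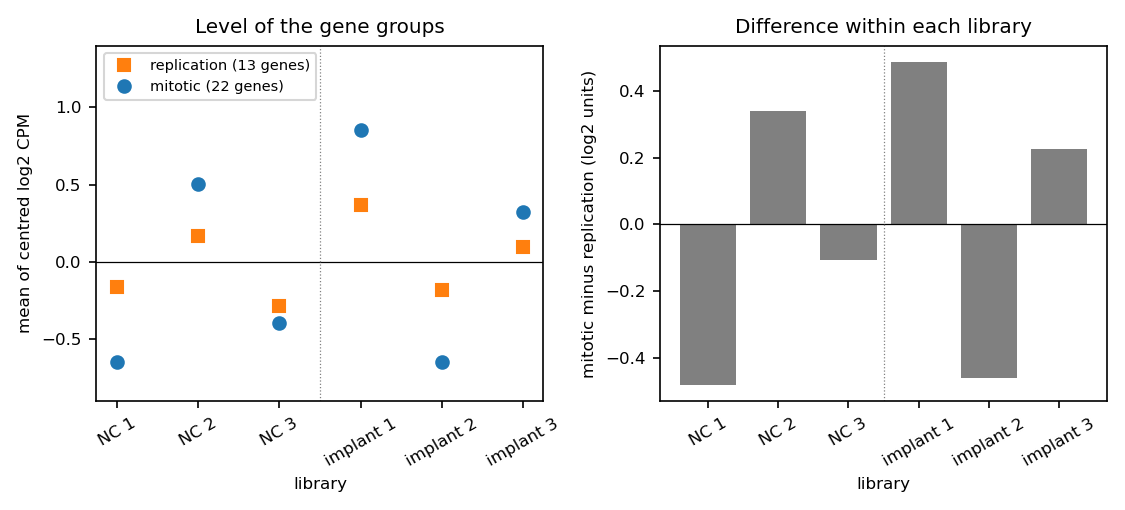
Left, mean centred log2 CPM of the replication genes (squares) and mitotic genes (circles) in each library, with no error bar because a library gives 1 value. Right, mitotic minus replication level in log2 units, which runs from -0.48 in NC 1 to 0.49 in implant 1.

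Within most libraries the mitotic genes lay on 1 side of their means. In NC 1 and in implant 2, 0 of 22 mitotic genes lay above their own mean over the libraries. In implant 1 it was 21 of 22, in implant 3 it was 20 of 22 and in NC 2 it was 19 of 22. In NC 3 it was 5 of 22. Relative to their own means, Schwann cell markers were high and low in the same libraries as the mitotic level, with sums of 1831, 28700 and 2464 CPM across NC libraries, against 12310, 1547 and 14830 CPM across those with the implant. Of the 8 markers 3 had a positive log2 fold change. Macrophage markers did not follow that order, with 927, 786 and 1449 CPM across the NC libraries, against 836, 1046 and 1183 CPM across those with the implant, with 7 of 7 tested and 3 positive. Fibroblast markers ran from 11720 to 13940 CPM in NC and from 8414 to 12930 CPM with the implant, with 5 of 5 tested and 1 positive. Endothelial markers summed to 902, 567.5 and 1427 CPM across the NC libraries, against 929.5, 1090 and 879.7 CPM across those with the implant. Of these, 4 of 4 were tested and 3 were positive. Pericyte and smooth muscle markers summed to 666.5, 821.5 and 605 CPM across the NC libraries, against 850.3, 641.2 and 519 CPM across those with the implant. Relative to their own means, they were high in NC 2 and implant 1, as the mitotic level was. They were low in implant 3, where the mitotic level was high. All 4 of these were tested and 1 was positive. No marker of these lists was at 0 in any library. The part of any cell type in the mitotic levels was not tested.

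In NC 3 the mitotic genes divided. Mki67, Tpx2, Cdc20 and Birc5 were highest there, and they were singled out after their values were seen. Mki67 (ENSRNOG00000028137), the source of the Ki-67 proliferation antigen, measured 10.3, 26.7 and 42.8 CPM across the NC libraries, against 37.0, 17.2 and 32.3 CPM across those with the implant. Its log2 fold change was 0.12 ± 0.54, and without NC 3 it was 0.64. Tpx2, which activates Aurora A on the spindle, measured 4.46, 9.77 and 13.7 CPM across the NC libraries, against 11.7, 5.60 and 9.32 CPM across those with the implant. Cdc20, the activator of the anaphase-promoting complex, measured 4.05, 6.07 and 8.75 CPM across the NC libraries, against 7.55, 4.62 and 7.72 CPM across those with the implant. Birc5 (survivin, of the passenger complex) measured 1.04, 1.79 and 5.93 CPM across the NC libraries, against 1.93, 1.47 and 2.30 CPM across those with the implant. Birc5 had the lowest log2 fold change of the 35, at -0.61 ± 0.68, and without NC 3 it was 0.43. In the same library its complex partner Aurkb was at its lowest, as were Kif11, Ect2, Ccnb1 and Top2a.

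**Figure D5:**
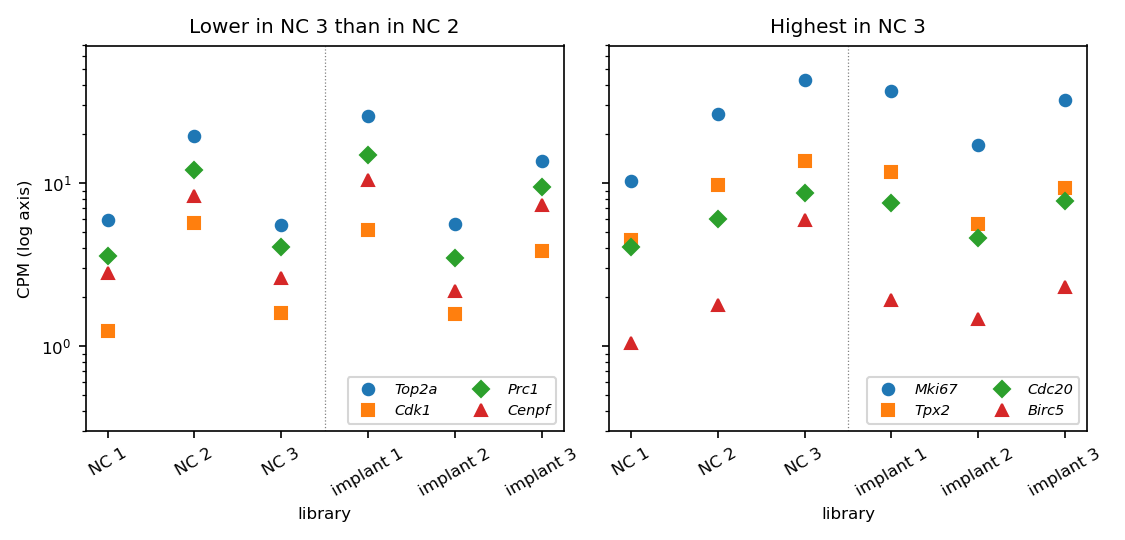
CPM (log axis) by library of 4 mitotic genes that were lower in NC 3 than in NC 2 (left) and of the 4 mitotic genes that were highest in NC 3 (right). Top2a stood at 5.57 CPM in NC 3 and 19.5 CPM in NC 2, while Mki67 stood at 42.8 and 26.7 CPM.

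Highest in NC 3 were 4 of 22 mitotic genes (18.2%) and 11 of 57 other mitotic genes (19.3%), beside 24.8% of all genes tested. Of the cell cycle genes outside the 35, those named next were chosen because they were highest there. Tk1, thymidine kinase, measured 3.12, 6.30 and 41.9 CPM across the NC libraries, against 16.04, 14.3 and 27.8 CPM across those with the implant. Cdc25b, a phosphatase that activates Cdk1, measured 36.2, 33.2 and 902 CPM across the NC libraries, against 159, 265 and 367 CPM across those with the implant. E2f2, a relative of E2f1, measured 2.70, 2.89 and 43.2 CPM across the NC libraries, against 10.5, 13.7 and 23.9 CPM across those with the implant. Markers of red cell precursors summed to 68.2, 69.0 and 4385 CPM across NC libraries, against 725, 1220 and 2378 CPM across those with the implant. E2f2 ranked the 6 libraries in that order too, while Tk1 had implant 1 above implant 2 and Cdc25b had NC 1 above NC 2. That NC 3 ranked first follows from how these genes were chosen. All 6 red cell precursor markers were tested, none was at 0 and 2 had a positive log2 fold change. Adipocyte markers were also highest in NC 3, at 4017 CPM, with 509.5 to 1203 CPM in the other NC libraries and 602 to 1067 CPM with the implant. The part of red cell precursors and of adipocytes in these values was not tested.

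Other genes of the pathway were also compared, in 5 lists, and 0 of their genes passed edgeR's test with Benjamini-Hochberg adjustment over all genes. Other replication genes had a median log2 fold change of 0.05 with 25 of 40 positive, and other mitotic genes had a median of 0.16 with 34 of 57 positive. Their spread repeated the contrast, with a median SD within groups of 0.27 and 0.69 log2 units. In the first list Orc4 and Orc5, subunits of the origin recognition complex, had the smallest unadjusted p. Orc4 measured 17.5, 19.8 and 19.5 CPM across the NC libraries, against 14.3, 15.4 and 16.3 CPM across those with the implant (edgeR unadjusted p 0.0499, adjusted p 1.00). Orc5 had a log2 fold change of -0.26 ± 0.13, and the groups of both genes did not overlap. In that list 2 of 40 genes had no overlap on the lower side and 1 of 40 on the higher side. The shares over all genes tested were 2.88% and 2.81%.

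Among other mitotic genes the smallest unadjusted p belonged to Tacc3 and Zwint. Tacc3, which stabilises spindle microtubules, measured 9.35, 9.83 and 11.4 CPM across the NC libraries, against 13.5, 13.1 and 15.6 CPM across those with the implant. Its log2 fold change was 0.46 ± 0.16 (edgeR unadjusted p 0.0239, adjusted p 1.00). Zwint, a kinetochore protein, had a log2 fold change of -0.26 ± 0.12, with no overlap on the lower side. In that list 1 of 57 genes had no overlap on the lower side and 2 of 57 on the higher side, beside 2.88% and 2.81% of all genes.

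Of the inhibitors and pocket proteins, Cdkn2c had the smallest unadjusted p. Cdkn2c, an inhibitor of the kinases of cyclin D, measured 20.2, 19.1 and 20.4 CPM across the NC libraries, against 14.5, 14.9 and 15.0 CPM across those with the implant. The gap between the groups exceeded the range within each, and the log2 fold change was -0.43 ± 0.11 (edgeR unadjusted p 0.00789, adjusted p 1.00, DESeq2 adjusted p 0.646). The list of inhibitors and pocket proteins as a whole had 9 of 11 positive and a median of 0.06. In this list 1 of 11 genes had no overlap between groups, beside 5.69% of all genes tested. Its other named gene, Pkmyt1, a kinase that restrains Cdk1, had a log2 fold change of 0.71 ± 0.41. G1 cyclins and kinases had 8 of 9 positive and a median of 0.09, with Ccne2, a cyclin E, at 0.66 ± 0.37 and Ccnd3, a cyclin D, at 0.15 ± 0.17. Transcription factors of the cell cycle had 8 of 15 positive and a median of 0.01, with the E2F family repressors E2f8 at 1.14 ± 0.59 and E2f6 at -0.18 ± 0.16.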

How the data were processed

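Polyadenylated RNA was sequenced from 6 libraries, per the labels' protocols, using an unstranded kit, which leaves antisense partners inseparable from a gene. Bowtie2 2.2.8, HISAT2, StringTie 1.3.1 and DESeq2 are named, per the submitters' processing notes, with no role. Neither counter nor build is given in the sources used here. Values are the authors' deposited expected counts (estimated counts per gene), which were rounded to whole numbers. Values that are not whole occur in Mcm4, Gins2, Tyms, Ccna2 and Ccnb2, which may share reads with other entries and are uncertain. Treated columns are named without GDNF and were matched by material and number. No symbol was given for 706 entries.

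Genes kept by filterByExpr were scaled by TMM and tested with edgeR 4.0.16 under R 4.3.3 (quasi-likelihood, two-sided, group as the only term). Calls required an adjusted p (Benjamini-Hochberg) below 0.05. The standard error was taken from the F statistic (fold change on the log2 scale over its square root), and intervals use the t quantile of the fit. CPM uses TMM-scaled totals, and log2 CPM a prior count of 2. Levels were not compared between genes, for want of transcript lengths. The test was tested on simulated counts of this comparison with 13860 genes: among genes simulated with a 2-fold change 3 of 49 were recovered, against 38 of 50 for 4-fold and 47 of 49 for 8-fold, and 3 of 139 calls were false. The simulated spread followed the fitted trend with abundance, not each gene's own spread. The median biological coefficient of variation (spread between libraries of a group) was 0.55 for mitotic genes and 0.26 for all genes. The simulation therefore does not give the recovery of changes in the mitotic genes. No libraries of a group agreed within sampling noise by chi-square.

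The genes, lists, motifs and alternatives were chosen with earlier results of these data known. Per-library values were given for the gene with the smallest unadjusted p and the gene with the highest mean log2 CPM of each role, for Mki67, Top2a, Cdk1, Ccnb1, Mcm2 and Pcna, and for some others chosen after their values were seen. From each other list the 2 genes with the smallest unadjusted p were named. Alternatives were RLE, upper quartile and haemoglobin-free TMM scaling, DESeq2 1.42.0, limma-voom (limma 3.58.1), no filter, a stricter filter (CPM 1 or more in 3 or more libraries), a replicate block, haemoglobin share as a covariate, and each library left out. Figures were drawn with matplotlib 3.10.9.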

Additional observations from a re-analysis of the deposited data

How the results depend on the processing

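No setting called any of the 35 genes, and the settings kept the medians of both sets positive when all 6 libraries were used. The number of genes called was 0 in every setting except DESeq2, which called 11. With all 6 libraries a log2 fold change turned its sign in few genes: Plk1 was -0.10 and Tpx2 0.071 with limma-voom, Plk1 was -0.030 with the replicate block, and with the haemoglobin covariate Cdt1 was 0.0020, Mki67 -0.19 and Cdc20 -0.17. The covariate also gave 4 of the 35 an unadjusted p under 0.05, Mcm2, Aurkb, Birc5 and Kif11, which is 11.4% beside 9.58% of all genes, and a mitotic median of 0.84. With each library left out in turn, mitotic minus replication (difference of medians) ran from -0.12 to 0.70, and the number of the 35 with no overlap between groups from 2 to 7, while 11% to 17.7% of all genes had none (17.2% where the number was 7). The log2 fold changes that turned their sign ran over these ranges: Birc5 -1.01 to 0.43, Bub1b -0.32 to 0.89, Ccna2 -0.34 to 0.58, Cdc20 -0.15 to 0.39, Cdk1 -0.049 to 1.31, Cdt1 -0.22 to 0.010, Cenpe -0.13 to 0.75, Ect2 -0.0080 to 1.52, Kif11 -0.023 to 0.99, Kif20a -0.28 to 0.94, Mcm3 -0.047 to 0.19, Mcm7 -0.045 to 0.24, Mki67 -0.26 to 0.64, Pcna -0.077 to 0.28, Plk1 -0.21 to 0.39, Rrm2 -0.38 to 1.01, Top2a -0.079 to 1.37, Tpx2 -0.39 to 0.32. Replicate numbers did not pair the libraries, with correlations of same-numbered deviations of 0.10, -0.72 and 0.06, and the replicate block gave a mitotic median of 0.39 with 0 genes called, so it changed no other call. With the block and with the covariate, which do not alter overlap, 1 of the 35 had no overlap, as in the main setting. Motif shares, recomputed after seeing the data on windows that hold the listed gene start, moved by less than their exact binomial interval. Depth limits Cdc6, Ccne1 and Plk1 most, with mean counts of 12.8, 17.7 and 26.8.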
